A study of Rattus norvegicus with 2 samples.

Results

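Cdkn1a encodes p21, an inhibitor of cyclin-dependent kinases, and was followed here through its only probe, which carries the rat Ensembl gene ID ENSRNOG00000000521. It is 1 of 20174 gene probes on each of 2 arrays. The probe was picked out by this ID and not by a cut on its values. Earlier results of these data were nevertheless known when the gene was chosen. The files name probes by ID alone and no table used here pairs the IDs with symbols, so the name Cdkn1a rests on the Ensembl ID itself. For the same reason, other genes of the p21 pathway and markers of the prostate cell types could not be looked up, and the labelled tissue was not checked against its markers.

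All animals were male TRAP rats, which carry the SV40 T antigen under the prostate-directed probasin promoter and develop prostate tumours. OBP-801 rats received intravenous OBP-801, an inhibitor of histone deacetylases, 2 times a week for 8 weeks from 6 weeks of age, and saline rats received saline on the same schedule. The dose was 1 mg/kg in the treatment protocol and was given elsewhere in the labels as 1 mg without a body weight. A single two-colour array held cancer tissue RNA of the ventral prostate and the other that of the lateral prostate, each with OBP-801 RNA in Cy3 and saline RNA in Cy5. How many rats gave each RNA is not known here. A single array per lobe allowed no test across animals, and with no array of exchanged dyes, the treatment and a preference of the probe for a dye cannot be told apart.

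p21 binds complexes of cyclins with their kinases, above all those of CDK2, and the replication clamp PCNA, and so restrains entry into and passage through DNA synthesis. Its gene is a classic target of p53, which binds response elements upstream of it. The SV40 large T antigen, present in the tumours of this rat line, binds and inactivates p53 and the retinoblastoma protein. In many cultured cell lines inhibitors of histone deacetylases raise Cdkn1a mRNA independently of p53, through GC boxes near the transcription start, which is why the gene is commonly read as a marker of these drugs.

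In the RefSeq annotation of GRCr8 Cdkn1a spans chr20:7150820-7161373 on the plus strand. The 138 bases directly upstream of the annotated gene are shown because they hold a match to the p53 decamer, a single unit of the pair that makes up a response element of the best known activator of the gene. Capitals mark that match, which ends 79 bases before the first annotated base of the gene.
Cdkn1a upstream, chr20:7150682-7150819, plus strand, 5′ to 3′: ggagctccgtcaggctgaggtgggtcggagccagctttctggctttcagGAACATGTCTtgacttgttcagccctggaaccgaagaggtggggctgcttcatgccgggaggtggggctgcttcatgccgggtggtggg
Both strands were searched for exact matches to the p53 decamer and to the GC box GGGCGG. The window held 1 match to the decamer and 0 to the GC box. The stretch of the same length directly after the capitals differs from the decamer only at its first base, and so was not counted. The RefSeq promoter window of Cdkn1a is counted from a transcript start inside the annotated gene, and only its part upstream of the gene was searched, so the counts say nothing about the bases next to that start. Of 33469 RefSeq promoter windows, each cut to the same stretch whatever its gene's other starts, 3.94% held a p53 decamer and 14.8% held GGGCGG. A match in letters is not evidence of binding, and the arrays measured RNA and not binding.

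The first question was whether Cdkn1a RNA was measured well enough to be compared. Its spot median was 1339 units in OBP-801 RNA and 852 units in saline RNA of the ventral prostate. In the lateral prostate it was 1128 units in OBP-801 RNA and 635 units in saline RNA. All 4 spots were far from the blank level, and none carried a scanner flag at any of the 3 gains or came near the scanner ceiling of 65535 units. The detection limit, set 2 SD above the mean of 5808 blank spots, was exceeded 21.3-fold in ventral OBP-801 RNA and 49.1-fold in ventral saline RNA, and in the lateral prostate 16.2-fold in OBP-801 RNA and 38.4-fold in saline RNA. Less the blank mean, the net signal was 1281 units in OBP-801 RNA and 836 units in saline RNA of the ventral lobe. The lateral net signals were 1064 units in OBP-801 RNA and 621 units in saline RNA. The local background around the spot, which was not subtracted, amounted to between 41.7% and 60.1% of the spot itself. By the limit from the blanks, Cdkn1a transcript was detected in both lobes under both treatments.

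**Figure D1:**
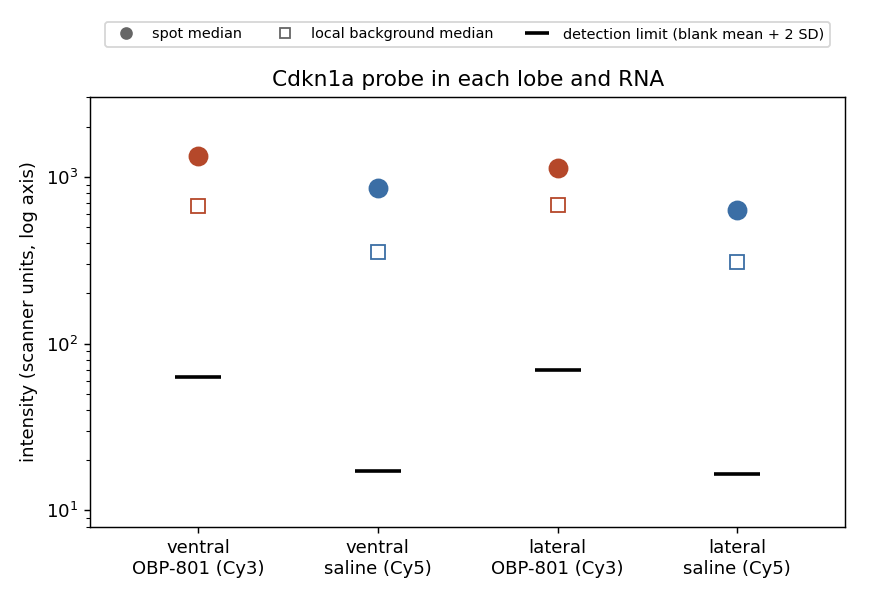
Spot median (filled circles), local background median (open squares) and detection limit (black bars) of the Cdkn1a probe in scanner units on a log axis, for OBP-801 RNA in Cy3 and saline RNA in Cy5 of each lobe. Each point is 1 dye of the only Cdkn1a spot on 1 array, so OBP-801 and saline points of a lobe share a spot. All 4 spot medians, between 635 and 1339 units, stand well above their limits of 16.6 to 69.7 units. The 2 dyes are not on a common scale, so the height of the OBP-801 points over the saline points is not a fold change.

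The spot medians of both lobes were higher in the OBP-801 channel, but so were those of most probes of like brightness. In the ventral prostate the log2 ratio of Cdkn1a, OBP-801 over saline, stood at 0.59 before any normalization of the dyes. Among the 611 other detected ventral probes whose mean log2 intensity lay within 0.25 of that of Cdkn1a, the median unnormalized log2 ratio was 1.03. In the lateral prostate the unnormalized log2 ratio of Cdkn1a was 0.74, against a median of 0.94 over 636 probes of like brightness. In each lobe, then, Cdkn1a lay below the middle of probes with its brightness, above 7.86% of them in the ventral and 25.3% of them in the lateral lobe.

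**Figure D2:**
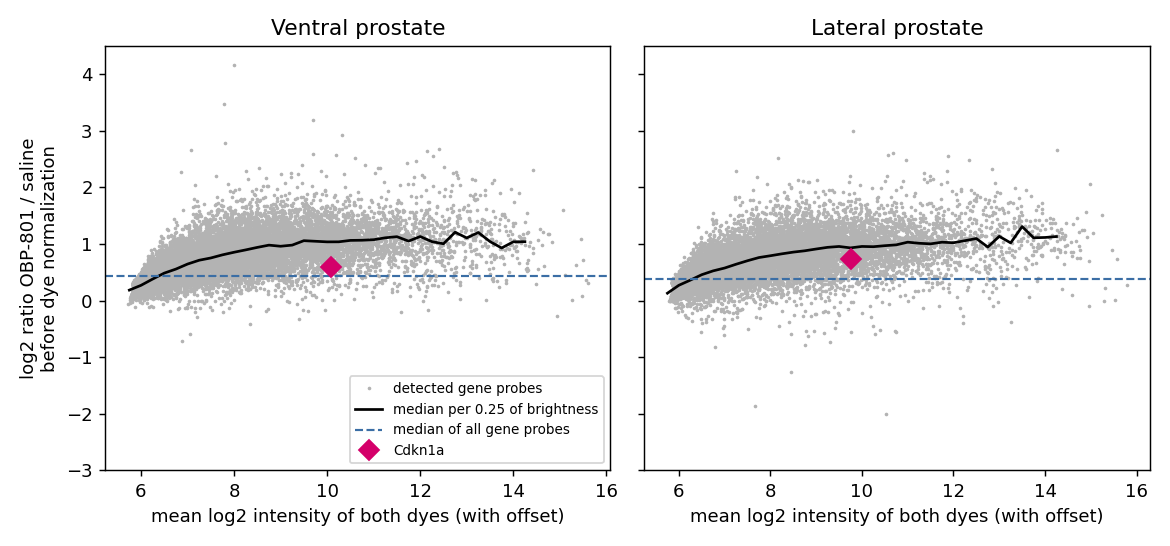
Unnormalized log2 ratio of OBP-801 over saline against the mean log2 intensity of both dyes for every detected gene probe (grey) in the ventral (left) and lateral (right) prostate. The black line is the median per 0.25 of brightness where at least 20 probes lie, the dashed line the median of all gene probes (0.44 ventral, 0.38 lateral), and the diamond is Cdkn1a. Cdkn1a, at 0.59 on the left and 0.74 on the right, lies below the black line and above the dashed line.

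The main comparison asked whether Cdkn1a RNA was higher with OBP-801, and no increase of 2-fold or more was seen in either lobe. After loess normalization, which sets each probe against others of its brightness, its level with OBP-801 was 1.36-fold lower in ventral tissue and 1.15-fold lower in lateral tissue, although its ratio was positive in both lobes with median centring while the offset of 50 units was kept, and without normalization. After loess the ventral log2 ratio was -0.44 and the lateral one -0.20. Neither reached 2-fold, the size used for a call, which 0.536% of 17158 detected ventral probes and 0.75% of 15726 detected lateral probes reached in either direction. A tissue RNA cannot tell a lower level in each cell from fewer cells that express the gene.

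The ventral ratio lay towards the low end of the array and the lateral ratio nearer its middle. Of the detected ventral probes 3.53% had a lower log2 ratio than Cdkn1a, and the middle 95% of ratios ran from -0.50 to 0.59. Of the detected lateral probes 14.0% had a lower ratio, with a middle 95% from -0.54 to 0.58. These ranks count many dim probes, whose ratios the offset of 50 units added in processing draws towards 0. Within 0.25 of the brightness of Cdkn1a, where probes are far above that offset, 49 of 611 ventral probes (8.02%) and 161 of 636 lateral probes (25.3%) had a lower ratio. The SD of the log2 ratio over these probes was 0.34 for the ventral and 0.35 for the lateral lobe, so that Cdkn1a lay within the middle 95% of its brightness class in each, which ran from -0.68 to 0.64 in the ventral and from -0.65 to 0.76 in the lateral lobe.

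The only replicated measurements on the arrays were control spots. Cdkn1a itself had 1 spot per array. Over 24 spots each, the 2 positive controls had log2 ratios of 0.03 ± 0.07 and -0.20 ± 0.12 on the ventral array (mean ± SD). On the lateral array the same controls had 0.16 ± 0.06 and -0.33 ± 0.08. The ventral Cdkn1a ratio of -0.44 lay below the means of both controls, slightly more than 2 SD below the lower of them. The lateral ratio of -0.20 lay between the control means. The ratios expected of the controls are not known here, so these positions cannot show whether Cdkn1a changed. The SD over control spots is a technical error and holds nothing of the variation between rats. In the block of the Cdkn1a spot, 1 of 24, the median log2 ratio was -0.02 over 696 detected ventral probes and 0.02 over 649 detected lateral probes.

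The authors' deposited table, which holds median-centred log2 ratios with OBP-801 as the numerator, listed Cdkn1a at -0.47 for the ventral and -0.23 for the lateral lobe. In the authors' deposited table these values are 1.38-fold and 1.17-fold lower with OBP-801, and 12.6% of the 15699 ventral and 27.5% of the 14372 lateral probes listed there stand lower. At least 2-fold apart in the authors' deposited table, which has no offset, were 5.07% of the ventral and 5.11% of the lateral probes, again without Cdkn1a. That table was made from the same spots, so it is another treatment of the same measurement and not a second one.

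**Figure D3:**
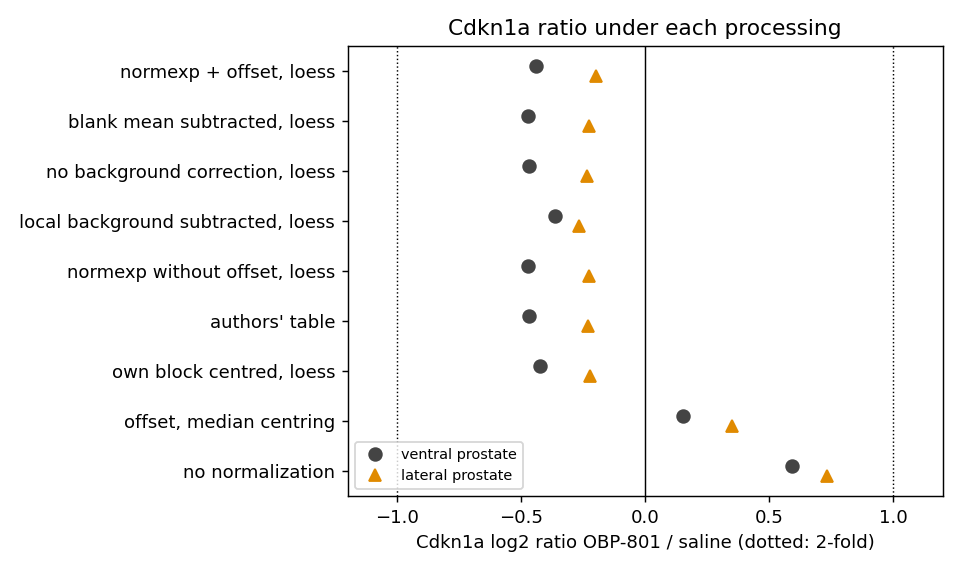
Log2 ratio of OBP-801 over saline of the Cdkn1a probe under each processing, in the ventral (circles) and lateral (triangles) prostate. Dotted lines mark 2-fold. With loess, whatever the background correction, and in the authors' table the ratios lie between -0.47 and -0.20. With an offset and median centring they are 0.15 ventral and 0.35 lateral, and without normalization 0.59 and 0.74.

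The sign of the Cdkn1a ratio turned on the processing. Median centring gave either sign, positive with the offset and negative in the authors' table. The size of the ratio stayed under 2-fold throughout. With loess the ventral ratio ran from -0.47 to -0.36 and the lateral ratio from -0.27 to -0.20 over the background corrections tried. Median centring with the offset kept gave 0.15 and 0.35. That setting subtracts 0.44 from every ventral and 0.38 from every lateral ratio, the median over all gene probes including dim ones with offset-shrunken ratios, whereas the loess curve stood at 1.03 and 0.93 at the brightness of Cdkn1a. The authors' table, median-centred without an offset, subtracts 1.08 and 1.00.

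Both lobes were then set side by side. The ventral log2 ratio of Cdkn1a was the more negative one. Ventral minus lateral, the ratios differed by -0.24 on the log2 scale, and 2.95% of 15467 probes detected on both arrays had a lower difference. The positive controls had differences of -0.13 ± 0.06 and 0.14 ± 0.10 (SD over 24 spots), so that Cdkn1a stood below the means of both, and less than 2 SD below the lower of them. A 2-fold difference between the lobes' ratios was reached by 0.155% of the probes and not by Cdkn1a. When the local background was subtracted the difference shrank to -0.09. Of the probes detected on both arrays, 573 (3.70%) had ratios at or below those of Cdkn1a in both lobes, and 37.7% had negative ratios in both. The shares of 2.95% and 3.70% count many dim probes, whose ratios the offset draws towards 0. They were not taken among probes of like brightness.

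**Figure D4:**
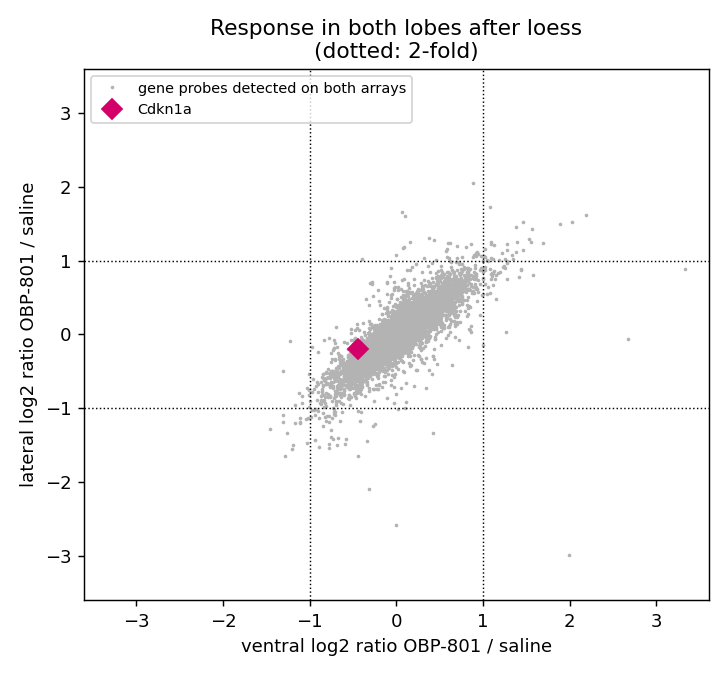
Log2 ratio of OBP-801 over saline after loess in the lateral prostate (vertical axis) against the ventral prostate (horizontal axis) for the 15467 gene probes detected on both arrays, with Cdkn1a as a diamond at -0.44 ventral and -0.20 lateral. Dotted lines mark 2-fold. Cdkn1a lies inside the 2-fold square on the side of negative ratios in both lobes.

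Levels of Cdkn1a were also compared between the lobes within each dye, after the arrays had been brought to a common brightness. In OBP-801 RNA the log2 level was 9.83 in ventral and 9.71 in lateral tissue, 1.09-fold higher in the ventral lobe. In saline RNA it was 10.27 in ventral and 9.91 in lateral tissue, 1.28-fold higher in the ventral lobe. The order of the levels was therefore ventral above lateral under both treatments, and saline above OBP-801 within each lobe on the loess scale, an order of the treatments that the authors' median-centred table shares and that turned round with median centring while the offset was kept and without normalization. The difference of 0.12 in OBP-801 RNA lay between the means of the positive controls in that channel, -0.47 ± 0.10 and 0.33 ± 0.10. These means lay on opposite sides of 0, and the span between them is not a measure of error. Whether the lobes differed in OBP-801 RNA was not tested. The difference of 0.36 in saline RNA lay above the control means of -0.34 ± 0.15 and 0.19 ± 0.16 and less than 2 SD above the higher of them. In OBP-801 RNA 26.8% of 16817 probes, and in saline RNA 5.34% of 16616 probes, had a larger ventral excess than Cdkn1a. Many dim probes, with differences drawn towards 0 by the offset, are counted in these shares, which were not taken among probes of like brightness. Differences of at least 2-fold between lobes were seen for 1.74% of probes in OBP-801 RNA and 0.969% in saline RNA, Cdkn1a in neither. Each lobe was on its own array, so lobe and array cannot be told apart.

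The probes whose pattern was most like that of Cdkn1a were sought among 14216 others detected in all 4 channels, by the Euclidean distance over the 4 normalized log2 levels, each centred on the probe's own mean. Centred in this way, the ventral values of Cdkn1a were -0.10 in OBP-801 RNA and 0.34 in saline RNA, and its lateral values were -0.22 in OBP-801 RNA and -0.02 in saline RNA. On this loess scale ventral saline RNA was the highest of the 4, whereas with median centring and the offset, where the ventral log2 ratio was 0.15, ventral OBP-801 RNA stood above it. ENSRNOG00000037931 was nearest, at a distance of 0.019 against a median of 0.462 over all candidates, with a log2 ratio of -0.45 in ventral and -0.19 in lateral tissue. ENSRNOG00000014258 came next, at a distance of 0.036, with a log2 ratio of -0.44 in ventral and -0.22 in lateral tissue. Both were much dimmer than the Cdkn1a spot. The first had spot medians of 91.5 units in OBP-801 RNA and 53.1 units in saline RNA of the ventral lobe. The second had 94.0 and 54.2 units there. The ratios of both are therefore more strongly drawn towards 0 by the offset than that of Cdkn1a. Their likeness to Cdkn1a is one of levels with the offset only. The ventral blank means were 58.1 units in OBP-801 RNA and 15.7 units in saline RNA, a large part of these spots. With blank means subtracted and ratios centred as in the authors' table, both probes lay further below 0 than Cdkn1a in both lobes. The distance itself was not computed without the offset. Neither ID was paired with a gene name here.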

How the data were processed

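Per the labels' protocols, total RNA was made into amino allyl aRNA, dye-coupled and hybridised following Toray's procedure. The deposited scanner files give spot and local background intensity as medians per wavelength, reconciled over 3 gains by a least-squares fit and neither background-subtracted nor normalized, per the file headers. Scanner and software are not named in the labels or headers. The authors' deposited log2 table has no description. Set against the scanner files, it equalled log2 of net OBP-801 over net saline signal less 1.08 (ventral) or 1.00 (lateral), with a remainder SD of 4.3e-05 and 7.9e-05.

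Ratios were computed with limma 3.58.1 in R 4.3.3. The local background was not used. Background correction of the spot medians was by normexp (offset 50), and ratios were normalized by loess with control spots at weight 0. Lobes were compared after Aquantile normalization. Blank means left out 5% of spots at each end. A probe was called detected where at least 1 channel exceeded the blank mean by 2 SD, and a difference was called at 2-fold. Summaries used Python 3.11.15, numpy 2.4.6 and pandas 2.3.3. The calculation was tested on simulated data with larger changes than that of Cdkn1a and a constant factor between the dyes. That test does not cover changes as small as that of Cdkn1a.

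The gene, lists, tests and most alternatives were chosen with earlier results of these data known. The planned gene lists (inhibitors and partners of cyclin-dependent kinases, p53 targets, regulators of Cdkn1a, histone deacetylases, genes raised by their inhibitors, proliferation genes) and cell type markers were not evaluated, since 0 genes of the reference table carry an Ensembl ID. The named probes were Cdkn1a and the 2 with the smallest distance to its pattern. With 1 array per lobe there was no test across samples, and the number of arrays limits the precision.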

Additional observations from a re-analysis of the deposited data

Results flagged for a closer look

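The local background around the Cdkn1a spot, a measurement outside the main comparison, was far above that around blank spots. It was 671 units in OBP-801 RNA and 356 units in saline RNA of the ventral prostate, and 677 units in OBP-801 RNA and 310 units in saline RNA of the lateral prostate. Over the median around blank spots this was 12.7-fold higher in ventral OBP-801 RNA and 26.3-fold in ventral saline RNA. For lateral OBP-801 and saline RNA it was 12.0-fold and 27.6-fold higher. As a share of the Cdkn1a spot itself it made 50.1% and 41.7% in ventral OBP-801 and saline RNA, and 60.1% and 48.8% in lateral OBP-801 and saline RNA. The local background around gene probes of like brightness was not compared, so nothing here marks it as particular to the Cdkn1a spot.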

How the results depend on the processing

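No paired analysis was possible because a lobe is represented by a single array. Of 36 values of Cdkn1a under an alternative, 30 moved by less than 1 SD of the spots of the more variable positive control, 6 moved further (9 against the less variable control), 4 changed sign and 0 reached 2-fold. The 4 values that changed sign were all ratios of OBP-801 over saline. These ratios became 0.15 ventral and 0.35 lateral with median centring, and 0.59 and 0.74 with no normalization. With the local background subtracted, the difference between the lobes' ratios became -0.094 and the ventral minus lateral level in OBP-801 RNA 0.27. Centring on the probe's own block, chosen after seeing the data, gave -0.42 ventral and -0.22 lateral. Percentages of all probes at least 2-fold apart depended more on the processing. In the order ventral ratio, lateral ratio and difference of ratios, 0.536%, 0.75% and 0.155% became 5.07%, 5.11% and 2.35% in the authors' deposited table, 9.68%, 9.21% and 6.25% with blank subtraction and 3.50%, 3.39% and 0.246% with median centring. Between lobes, 1.74% in OBP-801 RNA and 0.969% in saline RNA became 12.9% and 8.66% with blank subtraction. The authors' table holds no lobe levels. The Cdkn1a spots were at least 16.2 times the detection limit, but their local background made 41.7% to 60.1% of the spot, and there were neither replicate arrays nor exchanged dyes.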
